A study of Mus musculus with 12 samples.

Results

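The let-7 and miR-98 family was followed in small RNA of mouse heart cells. Its members were the rows of the deposited small RNA count table that lie on the annotated strand and whose precursor is named for let-7 or miR-98, with every genomic copy and both arms of each hairpin. This rule found 18 rows of 9 precursors, among 850 rows of 517 precursors in the whole table. A further 2 rows, listed under the name of a genomic clone, were matched to let-7a-2 by transcript identifier and added. Summing the 5p arms of the let-7a copies, and those of the let-7c copies, left 18 mature arms, of which 8 come from the 5′ side of the hairpin (5p) and 10 from the 3′ side (3p). The related let-7e and let-7f-1 are not analysed here.

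The hearts were those of FVB/NJ females, an inbred strain with no altered allele in the labels, aged 12 weeks. Hearts were digested with collagenase through the coronary vessels, and muscle cells were parted from the other cells by gravity. RNA of cardiomyocytes, the contracting muscle cells, was taken at once, with no culture. RNA of nonmyocytes was taken after growth in dishes, as a culture described as mostly fibroblasts, for which the protocol gives 2 passages and the cell type label P1. Each cell fraction gave 3 libraries of small RNA and 3 of polyadenylated RNA, and every comparison sets a fresh cell type against a cultured one, so that the effects of type and of culture cannot be told apart. The cells came from 3 hearts, but no label says which library came from which heart, so p-values measure how far the libraries spread, possibly for technical reasons alone.

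MicroRNAs are short RNAs that lead Argonaute proteins to messenger RNAs, mainly by pairing of their seed, the stretch near the 5′ end, with sites in the 3′ untranslated region (UTR). The let-7 microRNAs were found in the worm Caenorhabditis elegans as regulators of developmental timing, and in mammals they increase as cells mature and restrain genes of growth and the fetal state. Their maturation is blocked by the RNA-binding proteins Lin28a and Lin28b, which bind the hairpin. Lin28a recruits enzymes that add uridines to it.

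RefSeq held the mature sequence of 18 of 18 arms (build GRCm38.p6). The 8 abundant 5p arms are printed to show that they carry the same seed and differ outside it. Capitals mark the seed, bases 2 to 8.
let-7a-5p: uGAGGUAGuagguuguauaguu
let-7b-5p: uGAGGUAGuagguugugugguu
let-7c-5p: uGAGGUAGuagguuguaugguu
let-7d-5p: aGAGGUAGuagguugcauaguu
let-7f-5p: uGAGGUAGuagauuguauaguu
let-7g-5p: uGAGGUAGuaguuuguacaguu
let-7i-5p: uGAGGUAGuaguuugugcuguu
miR-98-5p: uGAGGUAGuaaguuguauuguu

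All 8 share the seed GAGGUAG. Differences from let-7a-5p are written with the base of let-7a first, then its position counted from 1 at the 5′ end, then the base of the other arm. They are A17G and A19G in let-7b, A19G in let-7c, U1A and U16C in let-7d, G12A in let-7f, and G11A and A19U in miR-98. G12U and U18C are found in let-7g, and G12U, A17G, U18C and A19U in let-7i. With so few differences, reads of closely related arms can be counted at the wrong member, and how such reads were assigned is not given in the sources used here.

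The 3p arms are more varied, and 2 of them matter most for the results. Their seeds, in capitals, differ from each other and from that of the 5p arms.
let-7f-2-3p: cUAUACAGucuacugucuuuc
let-7i-3p: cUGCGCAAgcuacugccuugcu

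The let-7i hairpin shows how both arms lie in a precursor (chr10:122985640-122985724, minus strand, GRCm38.p6). Capitals mark the 5p arm and, after the loop, the 3p arm.
let-7i hairpin: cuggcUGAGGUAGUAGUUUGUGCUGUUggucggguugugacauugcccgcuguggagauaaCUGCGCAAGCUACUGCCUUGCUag

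The small RNA libraries differed widely in depth, with totals of 412739, 3062706 and 6311625 counts in cardiomyocytes and 1255622, 549924 and 83170 counts in nonmyocytes. Levels are given in CPM, counts scaled to a common library total with factors from the trimmed mean of M values (TMM). At 3 counts, taken as the limit of what a count of 0 allows, an arm stands at 0.920 CPM in the deepest library and 20.3 CPM in the shallowest. Polyadenylated RNA libraries held 5956831 to 26851830 counts. In messenger RNA, the summed level of 5 cardiomyocyte markers was 98284 to 131854 CPM in cardiomyocytes, against 689 to 932 CPM in nonmyocytes, and that of 6 fibroblast markers was 151 to 192 CPM against 7677 to 9239 CPM. Endothelial markers summed to 262 to 594 CPM in cardiomyocytes, against 64.9 to 73.5 CPM in nonmyocytes, with 3 of 4 tested called higher and Pecam1 at or near 0 in all. Mural markers summed to 130 to 279 CPM in cardiomyocytes, against 168 to 201 CPM in nonmyocytes, with Rgs5 and Kcnj8 among 3 of 4 called higher and Myh11 lower. Leukocyte markers summed to 15.2 to 19.2 CPM against 57.0 to 70.4 CPM, and erythroid markers to 7.999 to 359 CPM against 1.40 to 3.29 CPM, in the same fractions. In small RNA, nonmyocyte library 3 stood apart. Its summed level of 5 cardiomyocyte microRNAs, led by miR-133a, was 15219 CPM, against 165 and 249 CPM in nonmyocyte libraries 1 and 2 and 197393 to 369417 CPM in cardiomyocytes. The fibroblast and mural microRNAs summed to 20023, 20191 and 55352 CPM in cardiomyocytes, against 110724, 91598 and 107566 CPM in nonmyocytes. In cardiomyocytes miR-143 led this list, at 18487, 17378 and 50918 CPM, so that cardiomyocyte library 3 stood highest. The endothelial miR-126 was at 4286, 15116 and 43032 CPM in cardiomyocytes, against 1087, 843 and 3451 CPM in nonmyocytes. The blood microRNA list summed to 1066 to 1754 CPM in cardiomyocytes, against 31.5 to 414 CPM in nonmyocytes. In these bulk samples, fewer cells of a type and less RNA per cell cannot be told apart, and the part that other cell types had in the results on let-7 and on genes was not tested.

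Of the 18 arms, 16 passed the filter on low counts. Among them 3 were higher in cardiomyocytes (let-7a-5p, let-7g-5p and let-7f-2-3p), 1 was lower (let-7i-5p), and 12 did not pass the test, at an adjusted p under 0.05 (edgeR's quasi-likelihood test, two-sided, Benjamini-Hochberg over all 341 tested arms). Over all tested arms 19.4% were called higher and 32.6% lower. For the family the counts of 3 and 1 rest on the scaling, since under library totals 1 arm was called higher and 8 lower, and the difference from all arms was not tested. The median log2 fold change was 0.29 over the 16 tested family arms, against -0.23 over all tested arms. The CPM ranges of the groups did not overlap for 7 of the 16, against 57.8% of all tested arms. Every log2 fold change is cardiomyocytes minus nonmyocytes and is followed by its standard error after the ± sign.

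**Figure D1:**
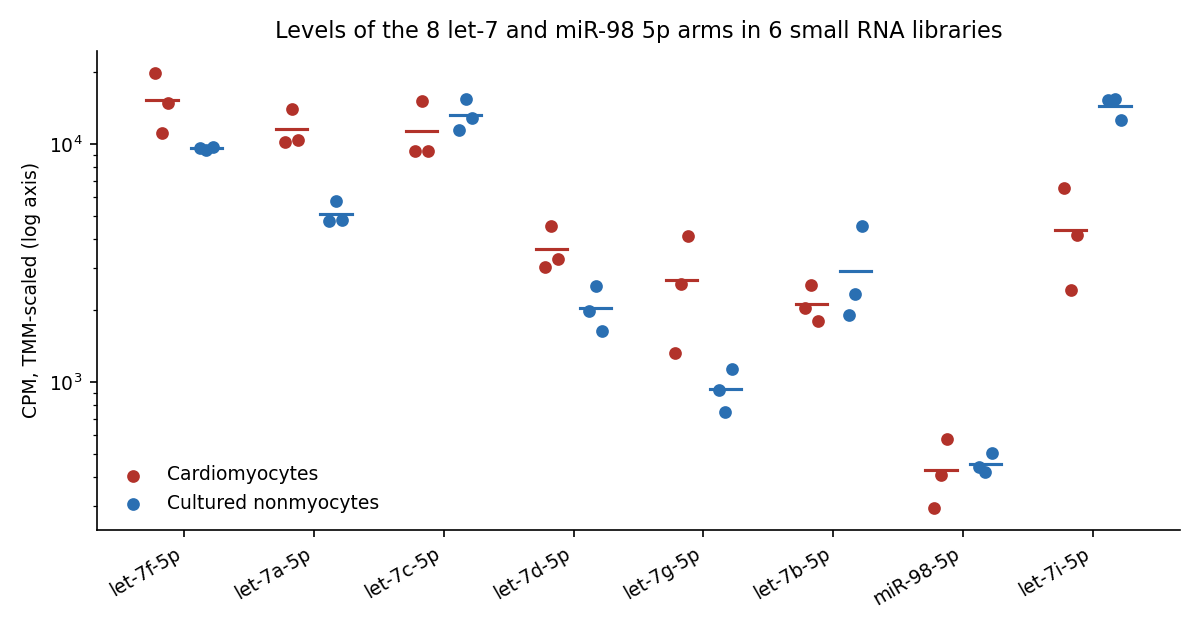
CPM (log axis) of the 8 5p arms of the family, with a point for each of 3 cardiomyocyte libraries (red) and 3 nonmyocyte libraries (blue), and a bar at each mean. Points of the groups are separate for let-7f, let-7a, let-7d and let-7g, which stand higher in cardiomyocytes, and for let-7i, which stands lower, from 2426 to 6538 CPM in cardiomyocytes and from 12623 to 15523 CPM in nonmyocytes.

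The member lower in cardiomyocytes was let-7i-5p (chr10:122422754-122422775, mm9, minus strand). It had 6538, 2426 and 4149 CPM in cardiomyocytes, against 15306, 15523 and 12623 CPM in nonmyocytes. All 3 cardiomyocyte libraries lay below all 3 nonmyocyte libraries, and the cardiomyocyte libraries varied more among themselves. Its log2 fold change was -1.73 ± 0.50 (edgeR, adjusted p = 0.0226). Without nonmyocyte library 3 it was -1.43 (adjusted p = 0.0593), and it also failed the test without cardiomyocyte library 2 (adjusted p = 0.0937) or 3 (0.0751) or nonmyocyte library 1 (0.111) or 2 (0.0703), and with DESeq2's size factors (0.0525). Over all 17 alternatives the direction was the same in 17, with adjusted p from 0.000206 to 0.111.

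let-7a-5p, which has the founding sequence of the family, is made from a pair of copies (let-7a-1 at chr13:48633608-48633629, minus strand, and let-7a-2 at chr9:41344815-41344836, plus strand, mm9). It had 10198, 13970 and 10403 CPM in cardiomyocytes, against 4738, 5736 and 4779 CPM in nonmyocytes. The groups did not overlap, and the cardiomyocyte libraries varied more among themselves than the nonmyocyte libraries. Its log2 fold change was 1.18 ± 0.40 (edgeR, adjusted p = 0.0410), and -0.48 when libraries were scaled by their totals alone. Without nonmyocyte library 3 the fold change was 1.46 (adjusted p = 0.0330). It did not pass the test without cardiomyocyte library 2 (adjusted p = 0.0936) or nonmyocyte library 1 (0.188) or 2 (0.185). The clone-named let-7a-2 rows hold most of its counts, and without them the fold change was 0.98 and not called (adjusted p = 0.0740). Under upper-quartile scaling, without the filter and with the replicate number as a block the call was lost too. Over the alternatives adjusted p ran from 0.0188 to 0.327.

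let-7g-5p, made from an intron of Wdr82 (chr9:106081177-106081198, mm9, plus strand), had 1322, 2587 and 4111 CPM in cardiomyocytes, against 928, 749 and 1139 CPM in nonmyocytes. Its cardiomyocyte values spread over a wide range, and the lowest of them lay just above the highest nonmyocyte value. The log2 fold change was 1.51 ± 0.54 (edgeR, adjusted p = 0.0461), and -0.18 under scaling by library totals. It was 1.90 without nonmyocyte library 3 (adjusted p = 0.0234). It did not pass the test without cardiomyocyte library 2 (adjusted p = 0.0909) or 3 (0.102) or nonmyocyte library 1 (0.117) or 2 (0.222). Under upper-quartile scaling, with limma's test and with the replicate number as a block it was not called either. The same held without the filter and without the 3 most abundant other precursors, and adjusted p ran from 0.000367 to 0.767 over the alternatives. The 3 cardiomyocyte libraries stood in the same order for let-7g-5p as for miR-126, given above. Library depth, the summed cardiomyocyte microRNAs (197393, 357194 and 369417 CPM) and the summed fibroblast and mural microRNAs stood in that order too. The blood microRNA list did not. The part of endothelial cells, of other cell types or of depth in the call was not tested. let-7g and let-7i share G12U and U18C and were called in opposite directions.

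let-7f-2-3p, the minor arm of a hairpin in an intron of Huwe1 (chrX:148346946-148346967, mm9, plus strand), had 9, 47 and 232 counts in cardiomyocytes, against 10, 4 and 0 counts in nonmyocytes. These were 35.0, 27.5 and 71.1 CPM in cardiomyocytes and 4.87, 3.82 and 0 CPM in nonmyocytes, so the groups did not overlap, although the zero stands in the shallowest library. Its log2 fold change was 3.51 ± 0.72 (edgeR, adjusted p = 0.00554). It passed the filter on low counts through the cardiomyocyte libraries, where it is high, so that its call among the tested arms is weak evidence. Without nonmyocyte library 3 this was 3.58 (adjusted p = 0.00300), and the call was lost without nonmyocyte library 2 (adjusted p = 0.0556). Without cardiomyocyte library 3 the arm no longer passed the filter on low counts.

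let-7f-5p, the major arm of the same hairpin, had 19965, 11138 and 14811 CPM in cardiomyocytes, against 9659, 9391 and 9688 CPM in nonmyocytes. The groups did not overlap, but the cardiomyocyte libraries spread widely, and the log2 fold change of 0.68 ± 0.44 did not pass the test (edgeR, adjusted p = 0.235). It ranked 8 to 19 among 848 arms in cardiomyocyte libraries and 10 to 14 in nonmyocyte libraries.

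let-7d gave appreciable amounts of both arms. Its 5p arm had 3049, 4532 and 3294 CPM in cardiomyocytes, against 1992, 2525 and 1634 CPM in nonmyocytes, with a log2 fold change of 0.82 ± 0.41 (edgeR, adjusted p = 0.135). Its 3p arm had 1466, 1519 and 1153 CPM in cardiomyocytes, against 774, 944 and 556 CPM in nonmyocytes, with a log2 fold change of 0.86 ± 0.44 (edgeR, adjusted p = 0.143). In both arms every cardiomyocyte library lay above every nonmyocyte library, yet neither passed the test. Both fold changes turned negative under scaling by library totals, at -0.84 for the 5p arm and -0.79 for the 3p arm.

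The 3 remaining 5p arms overlapped between the groups and did not pass the test. let-7c-5p, among the most abundant members, had 9370, 15122 and 9368 CPM in cardiomyocytes, against 11435, 15493 and 12847 CPM in nonmyocytes, with a log2 fold change of -0.23 ± 0.45. let-7b-5p had 2042, 2558 and 1797 CPM in cardiomyocytes, against 1919, 2353 and 4542 CPM in nonmyocytes, with a log2 fold change of -0.46 ± 0.48. The highest value of let-7b is that of nonmyocyte library 3, without which the fold change was 0.33. miR-98-5p, the scarcest of the 5p arms in every library, had 296, 406 and 576 CPM in cardiomyocytes, against 440, 418 and 502 CPM in nonmyocytes, with a log2 fold change of -0.09 ± 0.46.

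**Figure D2:**
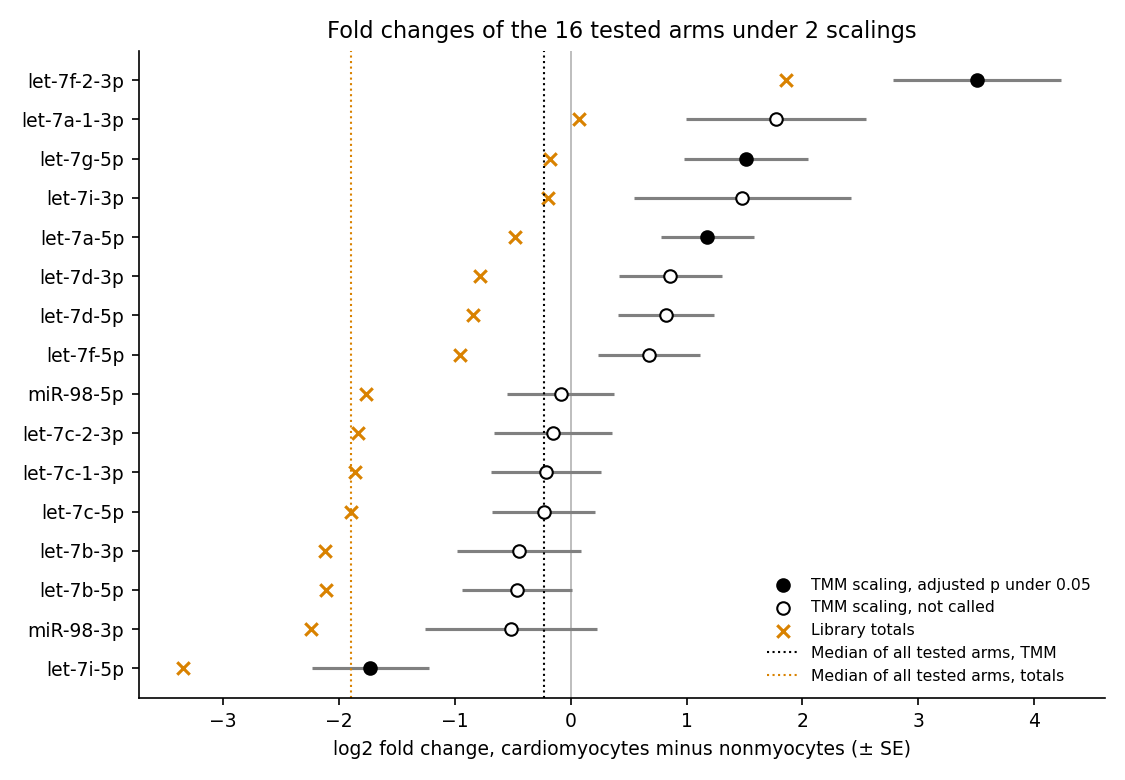
Log2 fold change, cardiomyocytes minus nonmyocytes, of the 16 tested arms under TMM scaling (circles with standard errors, filled where the adjusted p is under 0.05) and under scaling by library totals (crosses), with dotted lines at the median of all tested arms under each. The order of the arms hardly moves, while the zero point shifts by -1.67 on the log2 scale, so that let-7i-5p stands at the bottom and let-7f-2-3p at the top under both.

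The scaling of the libraries decided where 0 lay. TMM factors were 0.517 to 0.623 in cardiomyocytes and 1.64 to 1.91 in nonmyocytes, and scaling by totals alone moved the median of all tested arms to -1.90, a shift of -1.67. Relative to the median of all tested arms, let-7a-5p stood at 1.41 under TMM and 1.42 under library totals. Likewise let-7g-5p stood 1.74 and 1.72 above the median, and let-7d-5p 1.05 and 1.06 above it. let-7i-5p stood at -1.50 and -1.45 relative to the same medians. A change of scaling moves all arms by nearly the same amount, and subtracting the median removes it. The closeness of these values thus follows from the calculation and is no separate result. The direction of let-7a, let-7d, let-7f and let-7g relative to 0 was not the same under both scalings.

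The family as a whole also depended on the scaling. Its 5p arms held 3.29, 2.94 and 2.51% of all small RNA counts in cardiomyocytes, against 7.60, 9.95 and 8.47% in nonmyocytes. Counting error is small beside this gap, since the 95% Wilson intervals ran from 2.50 to 3.34% in cardiomyocytes and from 7.55 to 10.03% in nonmyocytes. The means were 2.91 ± 0.391% and 8.67 ± 1.19% (SD, n = 3 each). Without the 3 most abundant precursors outside the family, Mir22, Mir486 and Mir133a-2, the shares were 7.63% and 11.5%. On the TMM scale the summed 5p level was 52781, 52738 and 48508 CPM in cardiomyocytes, against 46418, 52188 and 47753 CPM in nonmyocytes, and the groups overlapped. The family's total was thus lower in cardiomyocytes as a share of the library, while on the TMM scale the groups overlapped.

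The make-up of the family does not depend on the scaling, since every member is set against the family's own 5p counts. In cardiomyocytes let-7i made up 12.4, 4.60 and 8.55% of these counts, against 33.0, 29.7 and 26.4% in nonmyocytes. let-7a made up 19.3, 26.5 and 21.4% in cardiomyocytes, against 10.2, 10.99 and 10.01% in nonmyocytes. The groups were clearly separate for both members, in opposite directions.

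let-7f averaged 29.8 ± 8.38% of the family's 5p counts in cardiomyocytes and 19.7 ± 1.497% in nonmyocytes (SD, n = 3 each). let-7d averaged 7.05 ± 1.43% in cardiomyocytes and 4.18 ± 0.714% in nonmyocytes. let-7g averaged 5.30 ± 3.003% in cardiomyocytes and 1.94 ± 0.478% in nonmyocytes. For let-7f and let-7g the lowest cardiomyocyte library came close to the highest nonmyocyte library, at 21.1% against 20.8% and at 2.51% against 2.39%. The shares of let-7c, let-7b and miR-98 overlapped between the groups, with means of 21.9, 4.14 and 0.839% in cardiomyocytes and 27.1, 6.05 and 0.933% in nonmyocytes. For the 5 members whose shares did not overlap (let-7a, let-7d, let-7f, let-7g and let-7i) an exact permutation test gave p = 0.1, two-sided, the smallest that 3 libraries against 3 allow, and 0.16 after adjustment over 8 members. These shares add up to a whole, so a fall of let-7i in them raises the others.

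**Figure D3:**
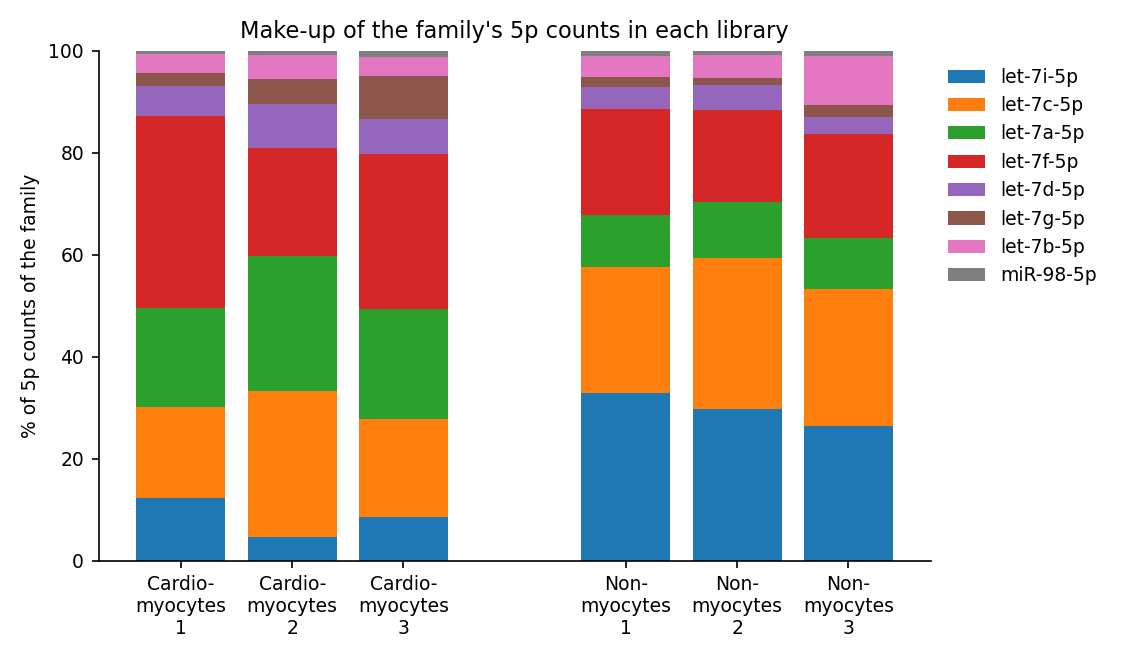
Share (%) of each member in the 5p counts of the family, as stacked bars for 3 cardiomyocyte libraries (left) and 3 nonmyocyte libraries (right). let-7i, at the base, takes 4.60 to 12.4% in cardiomyocytes and 26.4 to 33.0% in nonmyocytes, and let-7a takes 19.3 to 26.5% and 10.01 to 10.99% in the same fractions.

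The balance of let-7i to let-7a states this in a single value that needs no scaling. Counts of let-7i-5p over counts of let-7a-5p were 0.641, 0.174 and 0.399 in cardiomyocytes, against 3.23, 2.71 and 2.64 in nonmyocytes. let-7a was the more abundant in every cardiomyocyte library and let-7i in every nonmyocyte library. let-7i-5p was the top member in nonmyocyte libraries 1 and 2 and second to let-7c in library 3, and it ranked 7 to 9 among 848 arms there, against 23 to 46 in cardiomyocytes.

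Counts of copies and of neighbouring hairpins were also set against each other. Reads assigned to let-7a-2 over those assigned to let-7a-1 had ratios of 2.59, 2.65 and 2.57 in cardiomyocytes, against 2.30, 2.04 and 1.97 in nonmyocytes. Reads assigned to let-7c-1 over those assigned to let-7c-2 had ratios of 2.72, 3.35 and 3.25 in cardiomyocytes, against 5.61, 5.18 and 4.64 in nonmyocytes. Copies of identical mature sequence cannot be told apart by that sequence, so these ratios describe the table and not the output of each gene. let-7f-2 and miR-98 lie on chromosome X with 854 bases between their 5p arms. Their 5p counts had ratios of 67.5, 27.4 and 25.7 in cardiomyocytes, against 21.9, 22.5 and 19.3 in nonmyocytes. For the neighbours let-7b over let-7c-2 the ratios were 0.810, 0.736 and 0.815, against 1.11, 0.939 and 1.99, in the same fractions. For let-7d over let-7a-1 they were 1.07, 1.18 and 1.13, against 1.39, 1.34 and 1.02, and overlapped. The limit on copies of identical sequence holds for let-7c-2 and let-7a-1 here too, and for let-7f-2 through let-7f-1.

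In percentage points, the choice of arm differed among the hairpins far more than between the cell fractions. For let-7d the 3p arm made up 25.1 to 32.5% of the hairpin's counts in cardiomyocytes and 25.4 to 28.0% in nonmyocytes. For let-7b it was 3.49 to 7.66% in cardiomyocytes and 4.01 to 9.52% in nonmyocytes, and for let-7c 0.289 to 0.640% and 0.368 to 0.529%. These 3 hairpins overlapped between the groups, and so did let-7a, let-7g and miR-98. let-7a-1-3p and let-7c-2-3p have the same sequence, so their counts cannot be assigned to a hairpin with certainty.

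For let-7f-2 the 3p arm made up 0.175, 0.246 and 0.478% of counts in cardiomyocytes, against 0.0503, 0.0406 and 0% in nonmyocytes. The groups did not overlap, although 0 of 1429 counts in nonmyocyte library 3 allows a share of up to 0.210%. Since let-7f-1 has the same 5p sequence, the 5p counts cannot be assigned to the let-7f-2 hairpin with certainty. An exact permutation test gave p = 0.1, the smallest possible, and 0.8 after adjustment over 8 hairpins. For let-7i the 3p arm made up 0, 0.979 and 1.05% in cardiomyocytes, against 0.0826, 0.0369 and 0.0537% in nonmyocytes. The groups overlapped because cardiomyocyte library 1 had no count of this arm beside 1681 counts of the 5p arm, which allows a share of up to 0.178%. The 2 deeper cardiomyocyte libraries stood above every nonmyocyte library, and the exact permutation test over all 6 libraries gave p = 0.4. Intervals and limits of this kind cover counting error only.

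**Figure D4:**
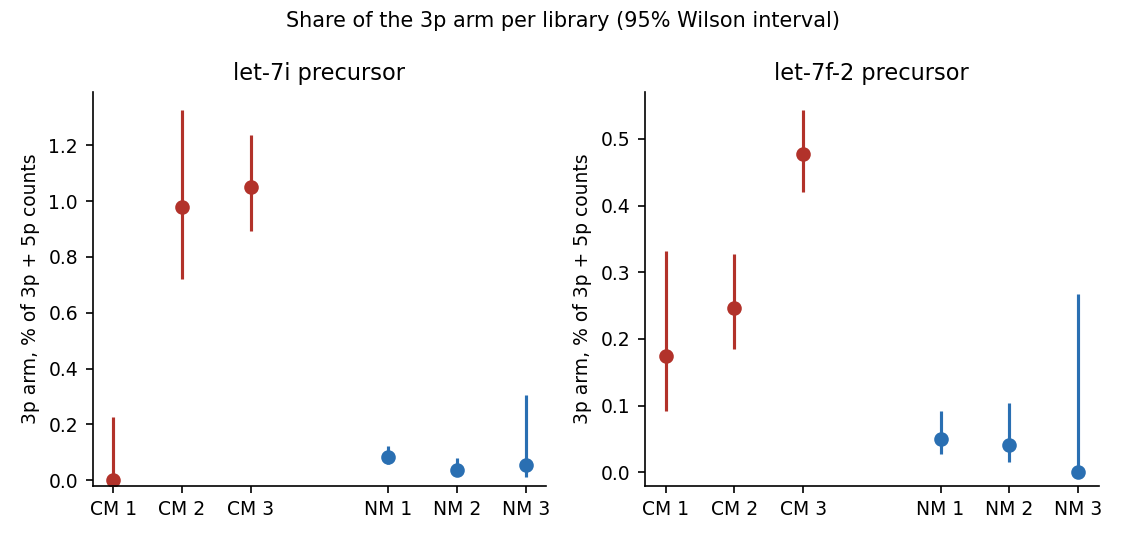
Share (%) of the 3p arm in the counts of the let-7i and let-7f-2 hairpins, per library, with 95% Wilson intervals, for cardiomyocytes (CM, red) and nonmyocytes (NM, blue). Cardiomyocyte libraries 2 and 3 stand near 1% for let-7i while library 1 is at 0, and for let-7f-2 all 3 cardiomyocyte libraries stand above the nonmyocyte libraries.

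The other 3p arms were scarce. let-7a-1-3p had 19.4, 62.6 and 146 CPM in cardiomyocytes, against 27.7, 19.1 and 20.3 CPM in nonmyocytes, a log2 fold change of 1.77 ± 0.78 that did not pass the test (edgeR, adjusted p = 0.0931). let-7i-3p had 0, 23.98 and 44.1 CPM in cardiomyocytes, against 12.7, 5.73 and 6.78 CPM in nonmyocytes, with a log2 fold change of 1.48 ± 0.94 (edgeR, adjusted p = 0.224). Both overlapped between the groups, with cardiomyocyte library 1 low in each. let-7b-3p, let-7c-1-3p, let-7c-2-3p and miR-98-3p had log2 fold changes of -0.45 ± 0.53, -0.21 ± 0.47, -0.15 ± 0.51 and -0.51 ± 0.74 and did not pass the test. let-7a-2-3p and let-7g-3p were too scarce to be tested, with at most 11 and 59 counts in a library.

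Of the family's precursors, let-7a-2 and let-7c-1 had a microRNA precursor of another family in the table within 10 kb. Beside let-7a-2 lies miR-100, and beside let-7c-1 lies miR-99a, both of a family known for targets in growth signalling. None of their 4 tested arms was called (edgeR), against 51.9% of all tested arms in either direction, and none had an unadjusted p under 0.05 except miR-100-3p. miR-100-5p had 93.3, 462 and 544 CPM in cardiomyocytes, against 1282, 878 and 285 CPM in nonmyocytes, with a log2 fold change of -1.15 ± 0.79. miR-99a-5p had 210, 1643 and 2297 CPM in cardiomyocytes, against 1846, 1420 and 1010 CPM in nonmyocytes, with a log2 fold change of -0.04 ± 0.79. In both, cardiomyocyte library 1 lay far below the other cardiomyocyte libraries. miR-100-3p and miR-99a-3p had log2 fold changes of -2.08 ± 0.85 and -0.76 ± 0.57.

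Within 100 kb, a distance chosen after the data were seen, lie miR-125b-1 beside let-7a-2 and miR-125b-2 beside let-7c-1. miR-125b is the mammalian relative of lin-4, the microRNA that acts with let-7 in worm development. Its copies also share a mature 5p sequence. miR-125b-1-3p had 121, 53.8 and 37.7 CPM in cardiomyocytes, against 5510, 5568 and 2190 CPM in nonmyocytes. Every cardiomyocyte library lay far below every nonmyocyte library, and the log2 fold change was -6.00 ± 0.75 (edgeR, adjusted p = 0.000744). The other 3 arms did not pass the test, with log2 fold changes of -0.28 ± 0.75 for miR-125b-1-5p, -0.45 ± 0.62 for miR-125b-2-5p and 0.74 ± 0.61 for miR-125b-2-3p. The neighbour let-7a-5p, summed over its copies, was higher in cardiomyocytes on the TMM scale (log2 fold change 1.18).

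Host genes were read in polyadenylated RNA, where 31.6% of 14734 tested genes were called higher in cardiomyocytes and 32.1% lower. Of 3 tested hosts 1 was higher and 1 lower, against 63.7% of all genes called in either direction. Scaling by library totals moved the median of all tested genes by -0.68 on the log2 scale, from -0.02 to -0.70. Since these libraries do not keep the strand, reads of genes that overlap cannot be told apart.

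n270230 is a long noncoding RNA gene of the NONCODE catalogue, at chr10:122422132-122422887 (mm9, minus strand), and an exon of it contains the let-7i hairpin. It had 0, 5 and 15 counts in cardiomyocytes, against 18, 33 and 25 counts in nonmyocytes, although the cardiomyocyte libraries 2 and 3 were the deepest. The groups did not overlap in CPM, and the log2 fold change was -2.41 ± 0.79 (edgeR, adjusted p = 0.0168). It passed the filter on low counts through the nonmyocyte libraries, where it is high. None of its exon bases lie in another annotated gene. It did not pass the test without cardiomyocyte library 2 (adjusted p = 0.0835) or nonmyocyte library 2 (adjusted p = 0.0957), and the direction was the same in 13 of 13 alternatives, with adjusted p from 0.00405 to 0.0957. let-7i-5p, the mature product in the small RNA libraries, was lower in cardiomyocytes as well.

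Huwe1 codes for a ubiquitin ligase and hosts let-7f-2 and miR-98 in an intron (chrX:148235350-148369960, mm9, plus strand). It had 452, 645 and 655 CPM in cardiomyocytes, against 399, 420 and 478 CPM in nonmyocytes. The groups overlapped, and the log2 fold change of 0.43 ± 0.18 was called (edgeR, adjusted p = 0.0485) but was -0.25 under scaling by library totals. It did not pass the test without cardiomyocyte library 2 (adjusted p = 0.157) or 3 (0.186) and without nonmyocyte library 1 (0.0509) or 2 (0.0687), with adjusted p from 0.00120 to 0.186 over the alternatives. Wdr82, a subunit of histone methyltransferase complexes and host of let-7g, had 11.6, 21.7 and 19.6 CPM in cardiomyocytes, against 9.70, 21.3 and 19.9 CPM in nonmyocytes, with a log2 fold change of 0.08 ± 0.33 (edgeR, adjusted p = 0.853). Other annotated genes cover 67.0% of its exon bases, which makes its level uncertain. The noncoding genes n279848 and n288745 around let-7a-1 and let-7d had at most 19 counts in a library and were not tested. Those around let-7a-2 and let-7c-1 are listed at 0 in all 6 libraries. Other annotated genes cover 97.9 to 100% of their exon bases, so a listed 0 does not show that they are silent.

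Genes of microRNA maturation were called in both directions. Of 11 tested, 2 were higher in cardiomyocytes and 6 lower, against 31.6% and 32.1% of all tested genes, and their median log2 fold change was -0.47, against -0.02 over all tested genes. The nuclear enzyme Drosha, listed as Rnasen, had 99.8, 132 and 117 CPM in cardiomyocytes, against 114, 76.3 and 67.5 CPM in nonmyocytes, with a log2 fold change of 0.44 ± 0.21 that did not pass the test. Dicer1, the enzyme that cuts out the mature duplex, had 38.2, 46.7 and 50.4 CPM in cardiomyocytes, against 39.0, 45.9 and 44.1 CPM in nonmyocytes, with a log2 fold change of 0.07 ± 0.18. The values of both enzymes overlapped between the groups. Dgcr8, the partner of Drosha, was lower at -0.98 ± 0.30 (edgeR, adjusted p = 0.0105), which failed the test without cardiomyocyte library 2 (adjusted p = 0.0526), and other genes cover 49.2% of its exons.

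The export factors were lower in cardiomyocytes. Ran, the GTPase that drives nuclear export, had 51.5, 77.9 and 59.8 CPM in cardiomyocytes, against 117, 135 and 138 CPM in nonmyocytes, and changed by -1.03 ± 0.18. Xpo5, the exportin that carries hairpins, changed by -0.44 ± 0.16 (edgeR, adjusted p = 0.0268), a call that was lost whichever library was left out, with adjusted p from 0.0543 to 0.0962, and without the filter on low counts, at 0.142. Tarbp2, a cofactor of Dicer, was higher by 1.19 ± 0.25 on the log2 scale, and by 0.51 with no call under library totals. Prkra, another cofactor, stood at -0.47 ± 0.30 and did not pass the test.

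Among the Argonaute genes, listed under their older symbols, 3 were lower and 1 higher in cardiomyocytes. Eif2c2 codes for the Argonaute that can slice its target. It had 15.1, 31.2 and 26.8 CPM in cardiomyocytes, against 35.4, 54.5 and 46.2 CPM in nonmyocytes, a log2 fold change of -0.87 ± 0.26 (edgeR, adjusted p = 0.0106). Eif2c1 changed by -1.26 ± 0.20 and Eif2c3 by -1.63 ± 0.35, although 73.8% of the exon bases of Eif2c3 lie in other genes. Eif2c4 was higher, with 18.6, 18.4 and 22.3 CPM in cardiomyocytes, against 5.82, 7.54 and 8.85 CPM in nonmyocytes, and a log2 fold change of 1.42 ± 0.27. For these 4 genes the fractions did not overlap, as for 70.4% of all tested genes.

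Regulators that act on let-7 itself were mixed as well, with 2 of 9 tested higher and 4 lower in cardiomyocytes and a median log2 fold change of -0.05, against 31.6% higher, 32.1% lower and a median of -0.02 over all tested genes. Of 11 regulators listed, 10 were found in the table under the symbols used, and Lin28a was not. Lin28b had 0, 11 and 5 counts in cardiomyocytes, against 0, 0 and 2 counts in nonmyocytes, and was too scarce to be tested. The enzymes that add uridines to let-7 hairpins are Zcchc11 and Zcchc6. Zcchc6 had 24.4, 42.1 and 44.7 CPM in cardiomyocytes, against 68.1, 72.9 and 77.3 CPM in nonmyocytes, a log2 fold change of -0.96 ± 0.22 (edgeR, adjusted p = 0.00186). Zcchc11, at 0.50 ± 0.24, did not pass the test, and neither did the related enzyme Papd4, at -0.05 ± 0.62.

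Dis3l2, the nuclease that degrades uridylated let-7 hairpins, had 20.7, 23.2 and 22.5 CPM in cardiomyocytes, against 6.42, 8.12 and 8.15 CPM in nonmyocytes. The libraries of each group lay close together and far from the other group, with a log2 fold change of 1.55 ± 0.25 (edgeR, adjusted p = 0.000119), called in 13 of 13 alternatives. Khsrp, a protein that binds the loop of let-7 hairpins and promotes their processing, was lower at -0.80 ± 0.16. The helicases of the Drosha complex differed, with Ddx5 at 0.47 ± 0.17 and Ddx17 at -0.83 ± 0.19. The call of Ddx5 was lost without cardiomyocyte library 2 (edgeR, adjusted p = 0.0732) or 3 (0.132), and its fold change was -0.21 under library totals. For Ddx17, 40.8% of exon bases lie in other genes. Trim25, a cofactor of Lin28a in uridylation, was lower at -0.93 ± 0.27, a call lost without nonmyocyte library 3 (edgeR, adjusted p = 0.0526). Hnrnpa1, which in human cells binds the let-7a hairpin and hinders its processing, stood at 0.81 ± 0.34 and did not pass the test, and other genes cover 91.6% of its exons.

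Targets of let-7 were taken as 52 genes reported as such in any tissue. Of these, 50 were found in the table under the symbols used and 47 were tested, of which 28 were lower in cardiomyocytes, 6 higher and 13 not called. Their median log2 fold change was -1.50, against -0.02 over all tested genes, of which 32.1% were lower and 31.6% higher. Some of the called targets passed the filter on low counts only through the group where they are high. Many of the listed genes act in cell division, matrix and inflammation, and cells grown in dishes are here set against cells taken straight from the heart. The part of growth in culture in these differences was not tested. The list was written with earlier results of these data known, so its shift against all genes is not independent of them.

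**Figure D5:**
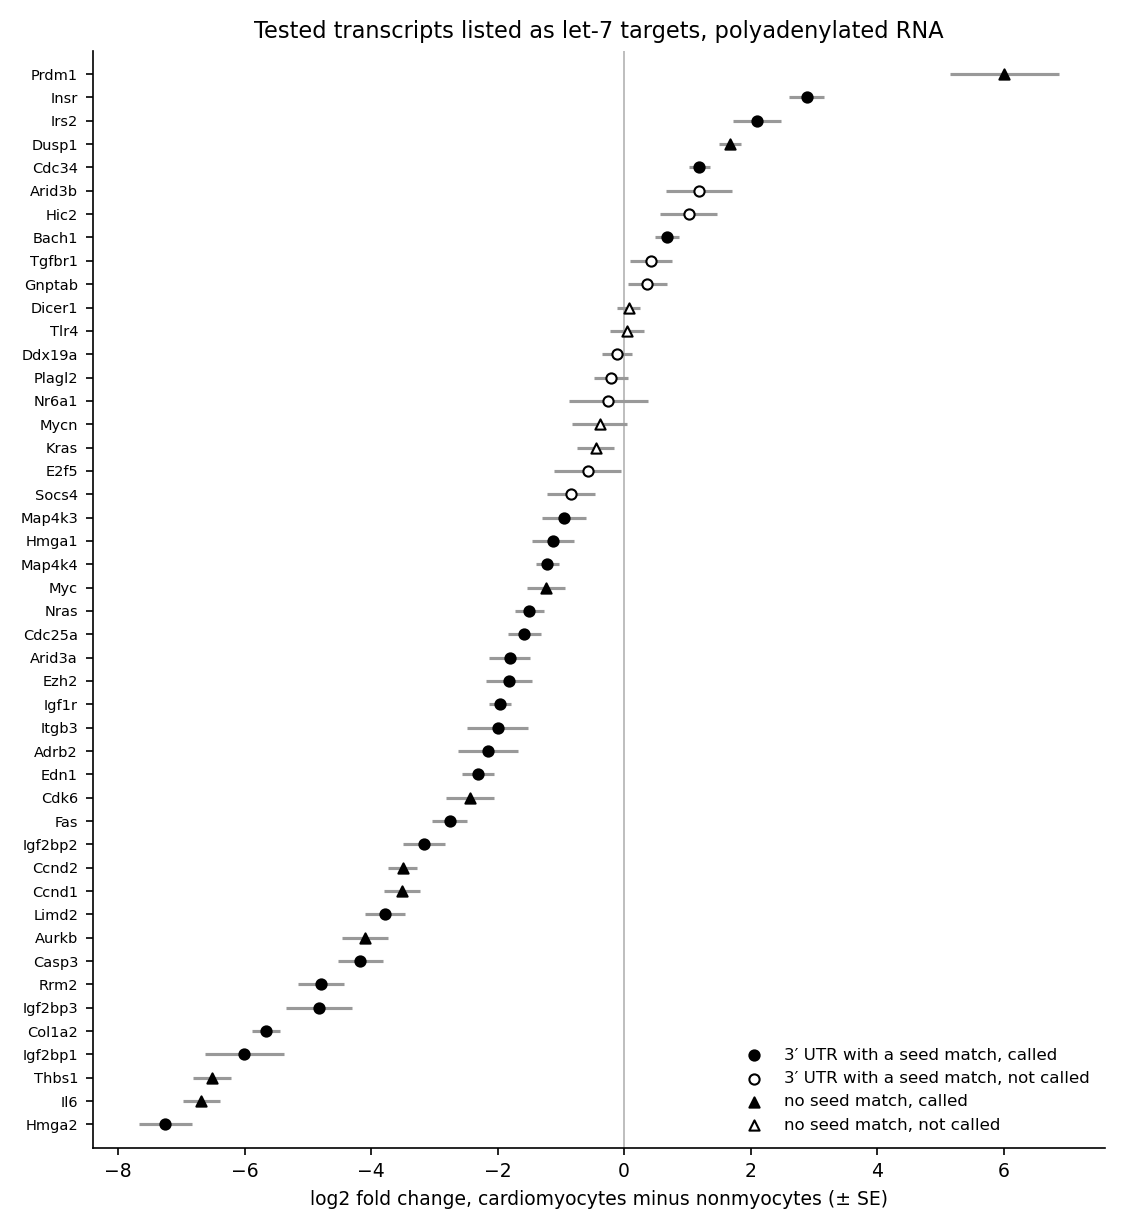
Log2 fold change, cardiomyocytes minus nonmyocytes, with its standard error, of tested genes of the target list in polyadenylated RNA, as circles where the 3′ UTR holds a let-7 seed match and triangles where it does not, filled where the adjusted p is under 0.05. Hmga2 stands lowest, and the point of Prdm1, at the top, rests on 2 counts in nonmyocytes.

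Hmga2, a chromatin protein of growing and fetal cells that is among the best known targets of let-7, had 0, 6 and 3 counts in cardiomyocytes. In CPM this was 0, 0.311 and 0.145 in cardiomyocytes, against 32.5, 29.7 and 31.8 in nonmyocytes, with a log2 fold change of -7.25 ± 0.42 (edgeR, adjusted p = 8.52e-09). Every nonmyocyte library stood near 30 CPM while the cardiomyocyte libraries were close to 0. Hmga2 passed the filter on low counts through the nonmyocyte libraries, where it is high, so its call is weak evidence. Its 3′ UTR in the GENCODE M21 annotation of GRCm38 (chromosome 10) holds 4 matches to the let-7 seed, CTACCTC, each shown in a stretch of 23 bases because Hmga2 had the largest decrease. Capitals mark the seed match.
Hmga2 site 1: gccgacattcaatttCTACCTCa
Hmga2 site 2: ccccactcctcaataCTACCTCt
Hmga2 site 3: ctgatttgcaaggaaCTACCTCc
Hmga2 site 4: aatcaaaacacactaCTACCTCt

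They start at bases 61, 1298, 1736 and 2594 of a 3′ UTR of 3017 bases. Igf2bp1, a fetal RNA-binding protein, also has 4 matches. It had 0, 0.104 and 0.0970 CPM in cardiomyocytes, against 6.27, 5.80 and 6.44 CPM in nonmyocytes, with a log2 fold change of -6.01 ± 0.63, and other genes cover 53.0% of its exons. As for Hmga2, the groups lay far apart, and Igf2bp1 passed the filter on low counts through the nonmyocyte libraries.

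Il6, a cytokine, and Thbs1, a matrix protein that restrains vessel growth, were also among the 5 targets with the largest decrease, and neither 3′ UTR holds the 7-base match. Il6 had 0.775, 0.622 and 0.533 CPM in cardiomyocytes, against 49.6, 71.5 and 68.7 CPM in nonmyocytes, with a log2 fold change of -6.68 ± 0.30. Il6 too passed the filter on low counts through the nonmyocyte libraries. Thbs1 had 43.4, 73.9 and 51.1 CPM in cardiomyocytes, against 3807, 5416 and 6328 CPM in nonmyocytes, with a log2 fold change of -6.52 ± 0.30. It had the highest mean level of the list.

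Of the other 4 targets with the highest mean level, Col1a2, a collagen chain, had 36.0, 53.2 and 47.8 CPM in cardiomyocytes, against 2069, 2256 and 2659 CPM in nonmyocytes, with a log2 fold change of -5.66 ± 0.22. Col1a2 was also used here as a fibroblast marker. The D-type cyclins Ccnd1 and Ccnd2, which drive cells into division, changed by -3.51 ± 0.28 and -3.50 ± 0.23, and their 3′ UTRs hold no match. Ccnd2 had 54.4, 102 and 79.7 CPM in cardiomyocytes, against 968, 809 and 912 CPM in nonmyocytes. Map4k4, a kinase of stress signalling, changed by -1.21 ± 0.18. All 4 showed no overlap between the groups.

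The targets higher in cardiomyocytes included a pair of genes of insulin signalling. Insr, the insulin receptor, had 142, 277 and 275 CPM in cardiomyocytes, against 24.1, 30.4 and 39.7 CPM in nonmyocytes, with a log2 fold change of 2.89 ± 0.27 (edgeR, adjusted p = 8.7e-07). Irs2, a docking protein of that receptor, had 151, 51.1 and 50.5 CPM in cardiomyocytes, against 20.2, 16.4 and 21.5 CPM in nonmyocytes, with a log2 fold change of 2.10 ± 0.38. No library overlapped in either gene, and each 3′ UTR holds 1 match. Of the exon bases of Insr, 39.0% lie in other genes. Igf1r, the receptor of insulin-like growth factor, was lower instead, with 59.7, 66.1 and 75.4 CPM in cardiomyocytes, against 301, 233 and 255 CPM in nonmyocytes, with a log2 fold change of -1.97 ± 0.17, and other genes cover 39.0% of its exons. It was chosen for mention after its values were seen.

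Dusp1, a phosphatase that turns off MAP kinases, had 288, 369 and 315 CPM in cardiomyocytes, against 84.0, 102 and 118 CPM in nonmyocytes, with a log2 fold change of 1.68 ± 0.18. Cdc34, an enzyme of the ubiquitin system, changed by 1.19 ± 0.16, and Bach1, a repressor of heme oxygenase, by 0.68 ± 0.19. The transcriptional repressor Prdm1 had 207 counts in all 3 cardiomyocyte libraries together, against 2 counts in the nonmyocyte libraries, a ratio of 84.1 per scaled library size with a 95% counting interval of 23.0 to 699. Prdm1 passed the filter on low counts through the cardiomyocyte libraries, where it is high. The 19 other targets called lower, Igf1r among them, had log2 fold changes from -4.83 to -0.95, and the 13 not called lay between -0.84 and 1.19.

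Of the 47 tested targets, 34 have a 3′ UTR with at least 1 match to CTACCTC on the sense strand, against 10.9% of 11811 tested genes with an annotated 3′ UTR. Of those 34, 21 were lower, 4 higher and 9 not called, with a median log2 fold change of -1.54. Of the 13 targets without a match, 7 were lower, 2 higher and 4 not called, with a median of -1.24. The list holds genes already reported as let-7 targets, so its share with a match is not independent of how it was made. The length of the 3′ UTR was not matched in this comparison either. The difference between targets with and without the match was not tested.

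The same match was then counted over all tested genes. The median log2 fold change was -0.10 for 10518 genes with no match, -0.05 for 1133 genes with 1 match and -0.09 for 136 genes with 2 matches. The share of genes lower in cardiomyocytes was 35.3, 34.7 and 34.6% in these groups. The 24 genes with 3 or more matches had a median of -0.47 and 41.7% lower. Of the listed targets, this group includes Hmga2 and Igf2bp1, which were lower, and Nr6a1 and Hic2, which were not called, at -0.25 ± 0.63 and 1.02 ± 0.45. The last 2, a nuclear receptor and a transcriptional repressor, were chosen for mention after their values were seen. The median length of the 3′ UTR was 1098 bases without a match and 2267, 3452 and 4686 bases with 1, 2 and 3 or more. Within 3 equal groups by length, the median with a match and without it was 0.14 and -0.06 for the shortest 3′ UTRs, -0.25 and -0.15 for the middle group, and -0.03 and -0.09 for the longest, so the sign of the difference was not the same in all 3. A match to 7 letters is a description of the sequence and does not show that a site is used.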

How the data were processed

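Per the labels' protocols, the TruSeq small RNA kit gave the small RNA libraries, and messenger RNA libraries came from oligo(dT)-selected RNA without strand information. The authors deposited whole-number counts per small RNA arm and per gene. The submitters' processing notes name Bowtie, TopHat 1.3.0, HTSeq, DESeq, edgeR and mm9 without their roles, while counting rules were not given in the sources used here. From these counts, edgeR 4.0.16 (R 4.3.3) gave TMM-scaled CPM and a robust quasi-likelihood test per table, after its filter on low counts (minimum count 10), with Benjamini-Hochberg adjustment and a threshold of 0.05. Standard errors are the fold change over the root of the F statistic. limma 3.58.1, DESeq2 1.42.0, other scalings, no filter and leaving out libraries were alternatives. Exact permutation tests and Wilson intervals used scipy 1.17.1. Tests across genes were tested on simulated data. GENCODE M21 (GRCm38) gave names by transcript identifier and 3′ UTRs, and RefSeq the sequences. Every family member, neighbour, host, maturation gene and regulator found under the symbols used is named. So are the 5 targets of highest mean level and the 5 of largest fold in each direction. A gene among these targets is not reported here. The members and lists were chosen with earlier results of these data known.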

Additional observations from a re-analysis of the deposited data

Results flagged for a closer look

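Of 4 rows on the strand opposite to the family's hairpins, none of which was counted as a member, 3 held more counts than a count of 0 allows. The row opposite let-7b-3p had 147 counts in all, of which cardiomyocytes gave 7, 40 and 69 and nonmyocytes 20, 10 and 1. The row opposite miR-98-3p had 22 counts, of which cardiomyocytes gave 3, 9 and 3 and nonmyocytes 4, 3 and 0. The row opposite let-7c-2-3p had 8 counts, of which cardiomyocytes gave 1, 2 and 4 and nonmyocytes 1, 0 and 0. The row opposite let-7a-1-3p had 2 counts, below that limit. Rows of the opposite strand were part of the scaling and of the values over all tested arms. Leaving them out put the median of all tested arms at -0.11, against -0.23 with them, and left 3 family arms called higher and 1 lower.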

How the results depend on the processing

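Small RNA results were limited by the shallowest libraries and by the scaling. The count of family arms higher in cardiomyocytes (3) was 1 under upper-quartile scaling, 1 under library totals, 5 without both shallowest libraries (chosen after the data were seen) and 0 to 6 with 1 library left out. The count of arms lower (1) was 0 with DESeq2's size factors, 8 under library totals and 0 to 1 with 1 library left out. Neighbours called within 10 kb (0) were 1 under upper-quartile scaling, 3 under library totals, 2 without both shallowest libraries and 1 within 100 kb. Hosts called (2) were 1 under upper-quartile scaling, 1 under library totals and 0 to 2 with 1 library left out.

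The family's share of counts was 7.63% in cardiomyocytes and 11.5% in nonmyocytes without the 3 most abundant other precursors, a difference of -3.91 points, and 2.44% in cardiomyocytes without the clone-named rows. Under library totals the log2 fold change turned to -0.48 for let-7a-5p, -0.79 for let-7d-3p, -0.84 for let-7d-5p, -0.95 for let-7f-5p, -0.18 for let-7g-5p, -0.20 for let-7i-3p and -0.94 for Mir125b-2-3p. For genes it turned to -0.25 for Huwe1, -0.62 for Wdr82, -0.24 for Rnasen, -0.61 for Dicer1, -0.18 for Zcchc11 and -0.21 for Ddx5. Upper-quartile scaling gave -0.028 for Wdr82 and -0.018 for Dicer1, and no filter gave 0.042 for Papd4. Mir99a-5p was at 0.0092 without opposite-strand rows and 0.27 without both shallowest libraries, which gave 0.20 for miR-98-5p. With 1 library left out, values ran from -0.69 to 0.33 for let-7b-5p, -0.34 to 0.028 for let-7c-1-3p, -0.42 to 0.067 for let-7c-5p, -0.29 to 0.26 for miR-98-5p, -0.57 to 0.45 for Mir99a-5p, -0.73 to 0.065 for Mir125b-1-5p, -0.16 to 0.32 for Wdr82 and -0.43 to 0.61 for Papd4. The difference in miR-98-5p share within the family ran from -0.27 to 0.045 points. The causes were not tested, apart from the shift of the zero point by library totals.

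Libraries of the same number were not shown to be paired, with correlations of 0.0444, -0.103 and 0.245 in small RNA and 0.162, 0.0504 and 0.1002 in polyadenylated RNA. With the replicate number as a block, 1 arm was higher and 1 lower, 2 hosts, 0 neighbours, 9 maturation genes and 6 regulators were called, and 29 targets were lower and 6 higher.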
